A study of Homo sapiens with 6 samples.

Results

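The interferon-stimulated genes and the genes that control them are described here after knockdown of PARP1 in HK-2, an established cell line derived from the proximal tubule of a human kidney. The set held 48 genes, taken by symbol from the 30403 genes of the deposited count table, and every symbol had a row. They comprised the chains of the type I interferon receptor and their kinases, the transcription factors STAT2 and IRF1, IRF2, IRF3, IRF7 and IRF9, sensors of viral RNA, and antiviral effectors. Cells had been transfected by lipofection with a plasmid for an shRNA against PARP1 (shPARP1) or a control shRNA plasmid (shCtrl). They were harvested after 48 h, and 3 polyadenylated-RNA libraries were sequenced per group. No interferon treatment or infection is named in the labels, and the shRNA sequences and the number of shRNAs used are not given there. Whether the 3 libraries of a group came from separate cultures is not stated, so p-values reflect only the variation among these libraries, and that variation may be technical.

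Type I interferons bind the receptor chains IFNAR1 and IFNAR2, which carry the kinases TYK2 and JAK1. The kinases phosphorylate STAT proteins, and STAT2 joins IRF9 in the complex ISGF3, which binds the interferon-stimulated response element (ISRE) in the promoters of its target genes. Many of those genes keep a low level of expression without added interferon, and tubule epithelium is able to respond to interferon.

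PARP1, the poly(ADP-ribose) polymerase targeted by the shRNA, had 26.9, 26.2 and 28.8 CPM in the shPARP1 libraries, against 262, 263 and 259 CPM in the shCtrl libraries. The groups stood apart by a log2 fold change of -3.26 (SE 0.04). Library totals lay between 29387853 and 32809303 counts in shPARP1 and between 24429683 and 26269194 counts in shCtrl, so all 3 shPARP1 libraries were deeper, and 3 counts corresponded to between 0.0911 and 0.125 CPM (counts scaled to a fixed library total). Levels below are CPM after TMM scaling (edgeR's library scaling), listed for replicates 1, 2 and 3 of each group, and averages are the mean ± SD over the 3. A gene was called higher or lower in shPARP1 at an edgeR quasi-likelihood adjusted p under 0.05 over 16040 tested genes, with no minimum fold, and intervals are 1.96 SE to each side of a log2 fold change. The epithelial markers KRT8, KRT18, PAX8 and GGT1 had at least 5710 counts in each library, whereas the proximal tubule genes LRP2 and HNF4A had 5 counts or fewer. Of 7 leukocyte markers with a row, 4 lay under 0.5 CPM, and CD3E had 2 counts or fewer. The 7 summed to between 349 and 359 CPM in shPARP1 and between 655 and 667 CPM in shCtrl, nearly all of it CD74, the invariant chain of MHC class II. Without CD74 the sums were 11.3 to 11.7 CPM in shPARP1 and 14.3 to 16.2 CPM in shCtrl. The 5 fibroblast markers with a row, of which 3 lay under 0.5 CPM, summed to between 9.38 and 10.7 CPM in shPARP1 and between 19.0 and 22.4 CPM in shCtrl. Whether these marker genes have a part in the results below was not tested.

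Promoters are shown for genes that were higher, lower or not called in shPARP1, because an ISRE core occurred among all 3 kinds. The windows come from RefSeq on GRCh38.p14, run 5′ to 3′ on the gene's strand, and span 250 bases before to 50 bases after a start. The core searched was GAAA, any 2 bases and GAAA again, or TTTC, any 2 bases and TTTC for the other strand, and matches may overlap each other. Matches are in capitals. ISG15 (higher) lies at chr1:1013247-1013546, plus strand, and IFI44L (higher) at chr1:78620198-78620497, plus strand. IFITM1 (lower) lies at chr11:313790-314089, plus strand, and IFI6 (lower) at chr1:27672143-27672442, minus strand.
ISG15: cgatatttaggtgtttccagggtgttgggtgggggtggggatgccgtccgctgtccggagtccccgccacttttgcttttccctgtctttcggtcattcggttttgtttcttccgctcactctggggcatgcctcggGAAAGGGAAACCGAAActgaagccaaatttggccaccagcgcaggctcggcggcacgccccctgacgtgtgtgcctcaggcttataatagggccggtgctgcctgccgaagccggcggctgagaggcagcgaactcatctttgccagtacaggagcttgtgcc
IFI44L: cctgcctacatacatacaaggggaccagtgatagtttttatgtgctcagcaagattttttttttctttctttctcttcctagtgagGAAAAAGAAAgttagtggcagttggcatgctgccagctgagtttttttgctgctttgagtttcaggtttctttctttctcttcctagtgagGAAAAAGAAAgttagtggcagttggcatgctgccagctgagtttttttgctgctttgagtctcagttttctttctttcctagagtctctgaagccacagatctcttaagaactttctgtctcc
IFITM1: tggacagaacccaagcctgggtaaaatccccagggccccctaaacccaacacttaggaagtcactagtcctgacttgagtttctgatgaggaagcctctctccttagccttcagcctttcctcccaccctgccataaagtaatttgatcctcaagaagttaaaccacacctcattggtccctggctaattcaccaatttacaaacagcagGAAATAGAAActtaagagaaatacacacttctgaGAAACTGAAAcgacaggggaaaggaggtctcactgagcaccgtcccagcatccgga
IFI6: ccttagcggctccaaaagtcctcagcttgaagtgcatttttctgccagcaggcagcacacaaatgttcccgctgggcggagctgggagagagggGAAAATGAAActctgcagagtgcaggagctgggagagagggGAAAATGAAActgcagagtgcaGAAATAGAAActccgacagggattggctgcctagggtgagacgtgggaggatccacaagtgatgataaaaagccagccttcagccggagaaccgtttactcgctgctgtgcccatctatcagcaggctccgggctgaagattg

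ISG15 had a pair of overlapping matches in one run, at 113 and 107 bases before the start, IFI44L had 2, IFITM1 had 2 with the second across the start, and IFI6 had 3. Shorter stretches around the matches are given for 3 more members: IFITM3 (lower) at chr11:320874-320924, minus strand, IFIT5 (higher) at chr10:89414511-89414585, plus strand, and BST2 (not called) at chr19:17405733-17405772, minus strand. IFIT1 (not called) lies at chr10:89392495-89392541, plus strand, and its core reads on the other strand, as does that of IFIT5.
IFITM3: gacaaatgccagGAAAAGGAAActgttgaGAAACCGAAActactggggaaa
IFIT5: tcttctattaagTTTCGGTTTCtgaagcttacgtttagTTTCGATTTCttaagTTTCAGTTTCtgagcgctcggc
BST2: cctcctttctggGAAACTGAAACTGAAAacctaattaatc
IFIT1: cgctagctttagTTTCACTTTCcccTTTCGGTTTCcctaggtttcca

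A promoter window was found for 35 of the 48 members. The ISRE core was present in 21 of the 35 (60.0%), against 4.38% of 27305 genes with a window. By call, it was present in 5 of 6 higher members, 5 of 10 lower members and 11 of 18 members that were not called. With up to 1 mismatch at the fixed bases the share was 77.1% of members and 37.7% of all genes. The GAS core TTCNNNGAA, the element bound by STAT dimers, which reads the same on both strands, was present in 8 of 35 members (22.9%) and in 9.38% of all genes. STAT2, IRF1, IRF9, JAK1, TYK2, IFNAR1, OAS1 and ADAR were among the members with a window and no exact ISRE core.

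Of the 48 members, 44 were tested, and IRF9, OAS2, MX2 and TRIM22 did not pass the filter on low counts. That filter requires a minimum level in 3 libraries rather than on average. MX2 was left out at a mean of 0.416 CPM over all 6 libraries, while SAMD9 was tested at 0.400 CPM. In shPARP1, 8 members were called higher (18.2% of those tested), against 27.3% of all genes tested, and 16 were called lower (36.4%), against 28.5% of all genes. The other 20 tested members were not called, with log2 fold changes between -0.20 and 0.65. For 23 of the 44 (52.3%) the shPARP1 and shCtrl values stood apart without overlap, against 60.1% of all genes. A call together with a difference of at least 2-fold was made for 5 members (11.4%), against 6.48% of all genes. IFITM1, IRF2, IFIH1 and OASL were lower and SAMD9 was higher. SAMD9, one of the 8 higher members, passed the filter on low counts only through shPARP1, the group where it was higher. The calls of IFIH1, OASL and SAMD9, all at low counts, were each lost when a particular library was left out. The median log2 fold change was -0.043 over the tested members and -0.007 over all genes, and the median absolute log2 fold change was 0.337 in both. In bulk RNA, fewer cells expressing a gene and less RNA per cell cannot be told apart.

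**Figure D1:**
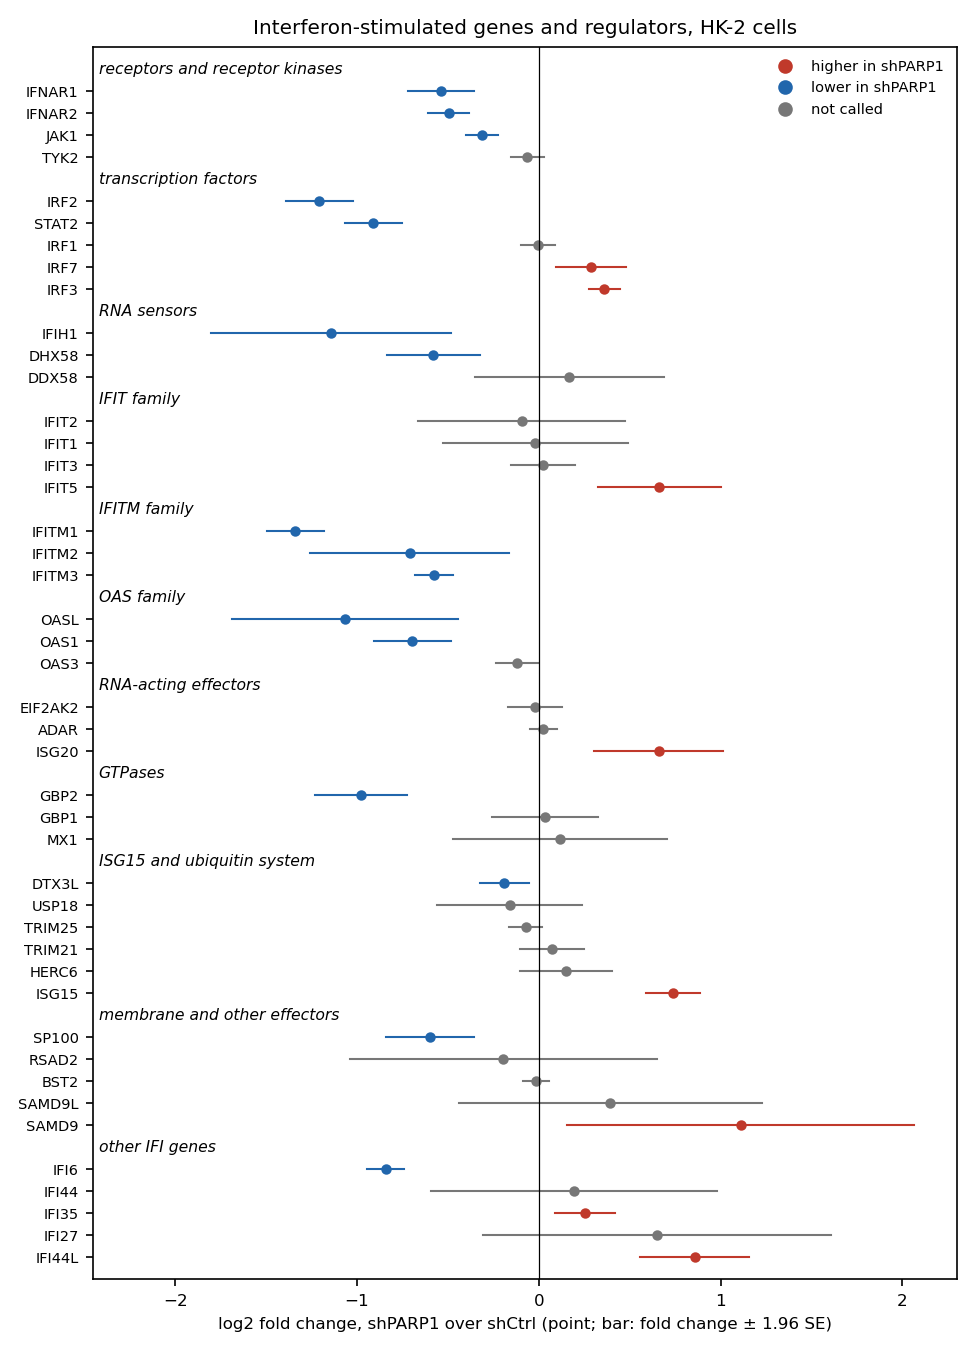
Log2 fold change of shPARP1 over shCtrl for the 44 tested members, grouped by role, with bars of 1.96 SE on each side, red for higher, blue for lower and grey for not called. The 3 IFITM genes all lie left of 0, while ISG15 (0.74) and IFI44L (0.86) lie right of it.

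**Figure D2:**
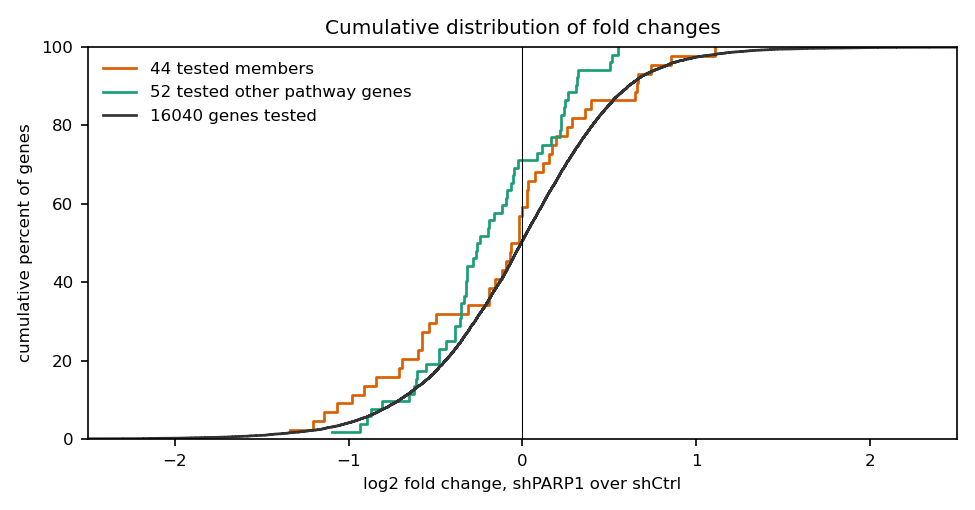
Cumulative percent of genes against log2 fold change (shPARP1 over shCtrl) for the 44 tested members, the 52 tested other pathway genes and the 16040 genes tested. The median is -0.043 for the members, -0.254 for the other pathway genes and -0.007 for all genes.

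Both receptor chains and 1 of the receptor kinases were lower in shPARP1, against 28.5% of all genes tested. IFNAR1, the chain bound by TYK2, had 16.0, 14.0 and 13.9 CPM in the shPARP1 libraries, against 18.9, 19.2 and 25.6 CPM in the shCtrl libraries (log2 fold change -0.54, SE 0.09, adjusted p = 2.58e-06). IFNAR2, the chain bound by JAK1, had 38.9, 37.2 and 39.3 CPM in the shPARP1 libraries, against 59.1, 52.6 and 51.1 CPM in the shCtrl libraries (log2 fold change -0.50, SE 0.06, adjusted p = 4.58e-11). JAK1, which also serves other cytokine receptors, had 79.4, 82.3 and 84.3 CPM in the shPARP1 libraries, against 95.6, 103 and 107 CPM in the shCtrl libraries (log2 fold change -0.31, SE 0.04, adjusted p = 1.93e-08). Each of the 3 genes had all its shPARP1 values below all its shCtrl values. IFNAR2 fell by 0.50 on the log2 scale, but 83.2% of its annotated exon length overlaps other genes. AP000295.1 (AP000295.9 in the table) shares 2038 bases of it on the same strand, and how reads were divided between them is not given in the sources used here. TYK2 had 69.0, 71.2 and 65.8 CPM in the shPARP1 libraries, against 71.4, 72.2 and 71.7 CPM in the shCtrl libraries. All 3 of its shPARP1 values lay below its shCtrl values, yet the log2 fold change was -0.06 with an adjusted p of 0.254.

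The transcription factors moved in both directions. STAT2, which carries the transactivation domain of ISGF3, had 13.4, 13.5 and 13.4 CPM in the shPARP1 libraries, against 25.6, 23.7 and 26.3 CPM in the shCtrl libraries (log2 fold change -0.91, SE 0.08, adjusted p = 6.91e-15). The shPARP1 values, at 13.4 ± 0.0444 CPM (mean ± SD), lay well below shCtrl, at 25.2 ± 1.35 CPM (mean ± SD) (n = 3 each). So small an SD in shPARP1 is below the counting error expected from 442, 416 and 399 counts. It does not measure how closely the libraries agree. IRF2, which binds the same sites as IRF1 and can repress them, had 8.47, 7.29 and 7.49 CPM in the shPARP1 libraries, against 16.7, 17.6 and 19.3 CPM in the shCtrl libraries (log2 fold change -1.21, SE 0.09, adjusted p = 9.08e-17). It was the larger of the falls in this group, and the libraries did not overlap.

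IRF3 and IRF7, which switch on interferon genes once viral nucleic acid is sensed, were both higher in shPARP1. IRF3 had 134, 133 and 129.8 CPM in the shPARP1 libraries, against 109.9, 103 and 96.6 CPM in the shCtrl libraries (log2 fold change 0.36, SE 0.04, adjusted p = 1.25e-10). Its exons overlap BCL2L12 on the opposite strand over 734 bases, and the strand setting of the counting is not given in the sources used here. IRF7 had 13.0, 12.5 and 11.5 CPM in the shPARP1 libraries, against 10.9, 9.02 and 10.5 CPM in the shCtrl libraries (log2 fold change 0.29, SE 0.10, adjusted p = 0.0102). Its groups did not overlap, but the lowest shPARP1 and the highest shCtrl value were close, and the call was lost without shPARP1 replicate 1 (0.25, adjusted p = 0.0542) or shCtrl replicate 2 (0.22, adjusted p = 0.0800).

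IRF1, an activator of interferon-stimulated genes that is itself induced by interferon gamma, had 73.2, 69.8 and 67.3 CPM in the shPARP1 libraries, against 68.9, 74.7 and 67.4 CPM in the shCtrl libraries. Its groups overlapped, and the log2 fold change was -0.00 (interval -0.10 to 0.09, adjusted p = 0.942). After a correction for gene length and GC content it was called higher instead, at 0.14 (adjusted p = 0.00267). IRF9, the DNA-binding subunit of ISGF3, had 3, 1 and 6 counts in the shPARP1 libraries, against 7, 2 and 4 counts in the shCtrl libraries, and was not tested. Of its annotated exon length, 48.4% is shared on the same strand with AL136295.5 (under a clone name in the table), which had 932, 816 and 703 counts in shPARP1 and 772, 799 and 761 counts in shCtrl. How reads of the shared exons were divided is not given in the sources used here, so the level of IRF9 RNA is uncertain.

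**Figure D3:**
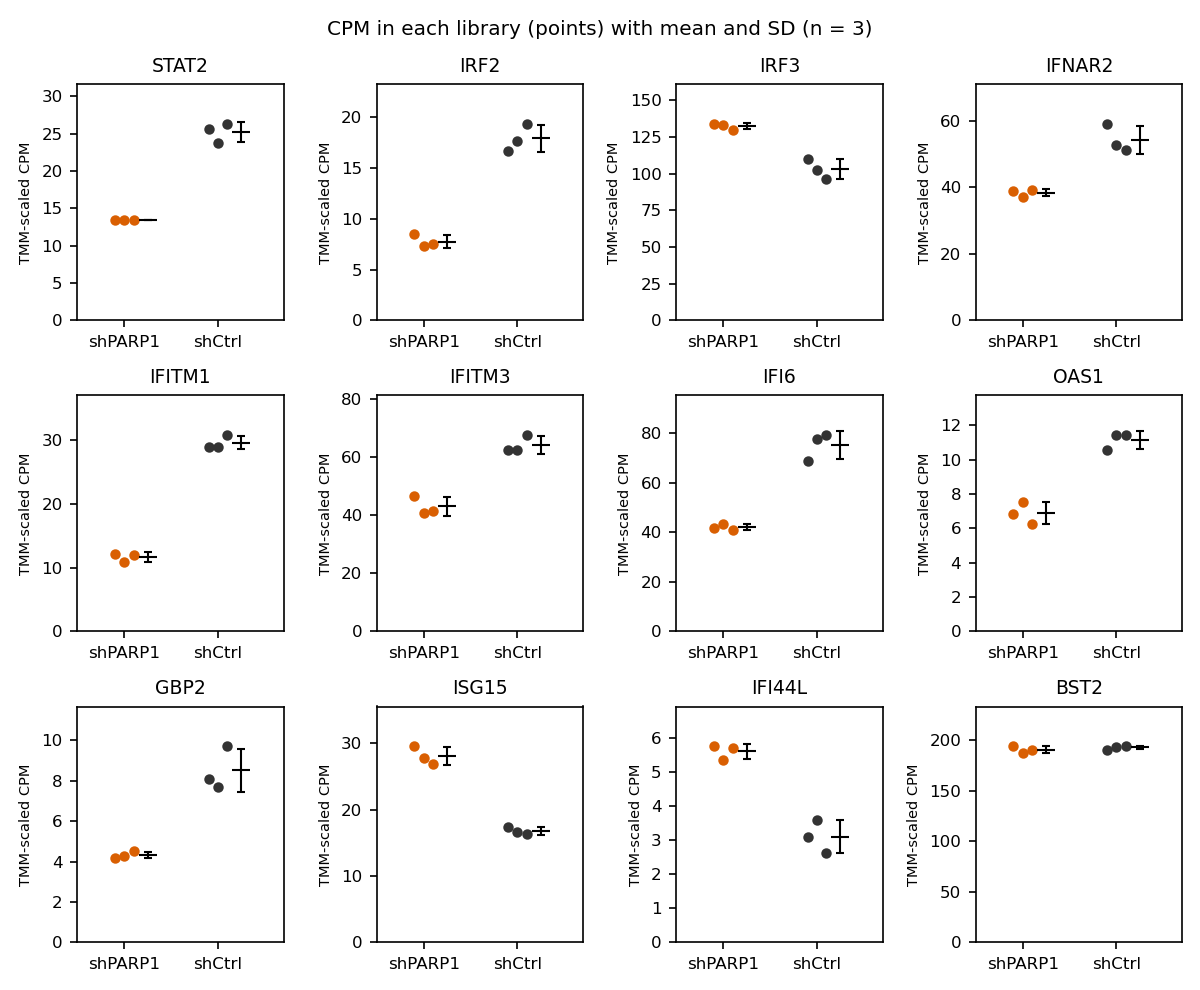
TMM-scaled CPM of 12 members in each library, with each panel's axis from 0, shPARP1 points left of shCtrl points, and bars for mean and SD (n = 3). STAT2 averages 13.4 CPM in shPARP1 and 25.2 CPM in shCtrl, while BST2 averages 190.3 CPM in shPARP1 and 193 CPM in shCtrl.

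Of the 3 cytosolic sensors of viral RNA, 2 were lower, against 28.5% of all genes tested. DHX58 (LGP2), which regulates the other sensors, had 4.55, 5.25 and 4.57 CPM in the shPARP1 libraries, against 6.77, 7.09 and 7.61 CPM in the shCtrl libraries (log2 fold change -0.58, SE 0.13, adjusted p = 1.19e-04), with no overlap of the groups. IFIH1 (MDA5), the sensor of long double-stranded RNA, had 0.789, 0.778 and 0.235 CPM in the shPARP1 libraries, against 1.29, 1.31 and 1.42 CPM in the shCtrl libraries (log2 fold change -1.14, SE 0.34, adjusted p = 0.00308). The groups did not overlap, but replicate 3 of shPARP1 was much lower than the other 2, and without it the log2 fold change was -0.77 with an adjusted p of 0.0620. DDX58 (RIG-I), the sensor of RNA with a triphosphate end, averaged 1.59 ± 0.578 CPM in shPARP1 and 1.40 ± 0.238 CPM in shCtrl. Its log2 fold change was 0.17, with an interval of -0.35 to 0.69.

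All 3 IFITM genes, whose membrane proteins block entry of enveloped viruses, were lower, against 28.5% of all genes tested. IFITM1, at chromosome 11 from 313506 to 315272, had 12.2, 10.9 and 12.1 CPM in the shPARP1 libraries, against 29.0, 29.0 and 30.9 CPM in the shCtrl libraries (log2 fold change -1.34, SE 0.08, adjusted p = 1.66e-21). This was the largest fall among the 44 tested members. IFITM3, its neighbour, had 46.7, 40.8 and 41.6 CPM in the shPARP1 libraries, against 62.4, 62.5 and 67.7 CPM in the shCtrl libraries (log2 fold change -0.58, SE 0.05, adjusted p = 6.07e-14). The shPARP1 values of both genes lay below every shCtrl value. IFITM2 had 0.820, 0.972 and 1.11 CPM in the shPARP1 libraries, against 1.42, 1.93 and 1.38 CPM in the shCtrl libraries (log2 fold change -0.71, SE 0.28, adjusted p = 0.0267). Its groups did not overlap, but the level was low and the call was lost in DESeq2 (adjusted p = 0.0877) and without shPARP1 replicate 1 (at -0.60, adjusted p = 0.104), without shPARP1 replicate 2 (at -0.71, adjusted p = 0.0530) or without shCtrl replicate 2 (at -0.53, adjusted p = 0.156). IFITM1 and IFITM2 share 351 bases of exon on the same strand, and the 3 genes are near-identical in parts, so reads may have been split between them or dropped.

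The IFIT genes, whose proteins bind foreign RNA ends and hold back its translation, lie in a cluster on chromosome 10. Of the 4, 1 was called, and it was higher, against 27.3% higher and 28.5% lower of all genes tested. IFIT5 had 4.52, 4.93 and 4.84 CPM in the shPARP1 libraries, against 1.92, 3.85 and 3.19 CPM in the shCtrl libraries (log2 fold change 0.66, SE 0.17, adjusted p = 8.55e-04). Its shPARP1 libraries were close together and above all shCtrl libraries, of which replicate 1 was the lowest. Without shCtrl replicate 1 the log2 fold change was 0.43 (adjusted p = 0.0269), and without shCtrl replicate 2 it was 0.90. IFIT3, the most abundant of the 4 per length, had 15.3, 12.9 and 14.8 CPM in the shPARP1 libraries, against 12.9, 15.8 and 13.6 CPM in the shCtrl libraries. The groups overlapped, with a log2 fold change of 0.02 (interval -0.16 to 0.20, adjusted p = 0.850).

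IFIT1 and IFIT2 were near 1 CPM. IFIT1 had 0.971, 1.62 and 1.88 CPM in the shPARP1 libraries, against 1.50, 1.73 and 1.27 CPM in the shCtrl libraries (log2 fold change -0.02, interval -0.53 to 0.49, adjusted p = 0.958). IFIT2 had 1.12, 0.972 and 1.31 CPM in the shPARP1 libraries, against 1.09, 0.963 and 1.58 CPM in the shCtrl libraries (log2 fold change -0.09, interval -0.66 to 0.48, adjusted p = 0.808). The groups overlapped for both, and the intervals are wide. IFIT2 shares 356 bases of exon on the same strand with a gene listed as RP11-149I23.3.

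The OAS enzymes sense double-stranded RNA and make short adenylate chains that activate RNase L. OAS1 had 6.86, 7.55 and 6.25 CPM in the shPARP1 libraries, against 10.6, 11.4 and 11.5 CPM in the shCtrl libraries (log2 fold change -0.70, SE 0.11, adjusted p = 1.22e-07), with every shPARP1 value below every shCtrl value. OASL, a relative without that enzyme activity, had 0.880, 0.681 and 0.604 CPM in the shPARP1 libraries, against 2.09, 0.848 and 1.65 CPM in the shCtrl libraries (log2 fold change -1.07, SE 0.32, adjusted p = 0.00324). Its groups overlapped, since shCtrl replicate 2 was lower than shPARP1 replicate 1, and without shCtrl replicate 1 the log2 fold change was -0.78 with an adjusted p of 0.0625. OAS3 had 38.1, 42.1 and 41.5 CPM in the shPARP1 libraries, against 45.8, 41.5 and 44.9 CPM in the shCtrl libraries. It overlapped between groups and was not called (log2 fold change -0.12, adjusted p = 0.0786), except without shCtrl replicate 2 (-0.15, adjusted p = 0.0484). OAS2 had 2, 1 and 2 counts in shPARP1 and 1, 0 and 4 counts in shCtrl and was not tested.

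Among the effectors that act on RNA, ISG20, an RNA exonuclease, was higher. It had 4.19, 4.15 and 3.02 CPM in the shPARP1 libraries, against 2.72, 2.08 and 2.42 CPM in the shCtrl libraries (log2 fold change 0.66, SE 0.18, adjusted p = 0.00148), with no overlap of the groups. ADAR, which edits adenosine to inosine in double-stranded RNA, averaged 151 ± 1.41 CPM in shPARP1 and 148 ± 3.50 CPM in shCtrl (log2 fold change 0.03, interval -0.05 to 0.10, adjusted p = 0.608). After the length and GC correction ADAR was called higher, at 0.20. EIF2AK2 (PKR), the kinase that halts translation on binding double-stranded RNA, averaged 21.8 ± 1.38 CPM in shPARP1 and 22.1 ± 0.308 CPM in shCtrl (log2 fold change -0.02, interval -0.17 to 0.13, adjusted p = 0.827).

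Of the interferon-induced GTPases, GBP2, which coats membranes of intracellular pathogens, was lower. It had 4.19, 4.28 and 4.50 CPM in the shPARP1 libraries, against 8.10, 7.71 and 9.73 CPM in the shCtrl libraries (log2 fold change -0.98, SE 0.13, adjusted p = 2.31e-09). The shPARP1 values were close together and lay below all shCtrl values. Its paralogue GBP1 averaged 4.98 ± 0.696 CPM in shPARP1 and 4.85 ± 0.928 CPM in shCtrl, and its log2 fold change was 0.03 (interval -0.26 to 0.33, adjusted p = 0.870). MX1, the GTPase that traps viral nucleocapsids, averaged 1.15 ± 0.312 CPM in shPARP1 and 1.06 ± 0.165 CPM in shCtrl, and its log2 fold change was 0.12 (interval -0.47 to 0.71, adjusted p = 0.766). MX2, which acts on lentiviruses, had 10, 8 and 10 counts in shPARP1 and 17, 9 and 14 counts in shCtrl and was not tested. In CPM its groups did not overlap, narrowly, with 0.336 the highest in shPARP1 and 0.347 the lowest in shCtrl.

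ISG15 is a ubiquitin-like protein that is joined to other proteins by its own enzymes, and its RNA was higher in shPARP1. It had 29.6, 27.8 and 26.8 CPM in the shPARP1 libraries, against 17.5, 16.6 and 16.4 CPM in the shCtrl libraries (log2 fold change 0.74, SE 0.08, adjusted p = 1.14e-12). The groups lay far apart, at 28.1 ± 1.42 CPM (mean ± SD) in shPARP1 and 16.8 ± 0.565 CPM (mean ± SD) in shCtrl (n = 3 each). UBA7, the enzyme that activates ISG15, is not a member of the set and went the other way, averaging 15.4 ± 0.398 CPM in shPARP1 and 28.6 ± 1.57 CPM in shCtrl (log2 fold change -0.90, SE 0.08, adjusted p = 2.15e-15). UBE2L6, which carries ISG15 to its targets, averaged 44.8 ± 0.901 CPM in shPARP1 and 46.3 ± 1.60 CPM in shCtrl (log2 fold change -0.05, adjusted p = 0.494). HERC5, the human ligase for ISG15, averaged 11.1 ± 1.04 CPM in shPARP1 and 9.36 ± 1.23 CPM in shCtrl (log2 fold change 0.24, SE 0.10, adjusted p = 0.0425). The HERC5 groups overlapped. UBE2L6 and HERC5 were named after their values were seen.

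USP18, which removes ISG15 from proteins and also blocks IFNAR2, averaged 2.29 ± 0.382 CPM in shPARP1 and 2.56 ± 0.504 CPM in shCtrl (log2 fold change -0.16, adjusted p = 0.529). DTX3L, a ubiquitin ligase that pairs with PARP9, had 28.2, 29.4 and 26.4 CPM in the shPARP1 libraries, against 32.6, 29.3 and 33.9 CPM in the shCtrl libraries (log2 fold change -0.19, SE 0.07, adjusted p = 0.0152). Its groups overlapped, and the call was lost without shCtrl replicate 3 (-0.14, adjusted p = 0.0991), without shPARP1 replicate 3 (-0.15, adjusted p = 0.105), in both limma fits on FPKM values and after the length and GC correction (-0.13, adjusted p = 0.0936). PARP9, chosen after its values were seen, averaged 9.20 ± 0.772 CPM in shPARP1 and 12.1 ± 1.89 CPM in shCtrl (log2 fold change -0.39, SE 0.10, adjusted p = 0.00122), and the genes overlap over 217 bases on opposite strands.

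The remaining members of this group are ubiquitin ligases. HERC6, the ISG15 ligase in mice, averaged 6.58 ± 1.03 CPM in shPARP1 and 5.94 ± 0.243 CPM in shCtrl (log2 fold change 0.15, adjusted p = 0.340). TRIM21, a cytosolic antibody receptor, averaged 14.4 ± 1.27 CPM in shPARP1 and 13.7 ± 1.07 CPM in shCtrl (log2 fold change 0.07, adjusted p = 0.526). TRIM25, a ligase for RIG-I, averaged 70.9 ± 2.47 CPM in shPARP1 and 74.5 ± 1.62 CPM in shCtrl (log2 fold change -0.07, adjusted p = 0.188). None of the 3 was called, although TRIM25 (0.10) and the kinase TYK2 (0.12) were called higher after the length and GC correction. TRIM22 had 4, 1 and 0 counts in shPARP1 and 5, 17 and 10 counts in shCtrl and was not tested. Its groups did not overlap, at counts too low for a fold change.

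BST2 (tetherin), which holds budding virions at the cell surface, was the member with the highest level per length, at 165.6 FPKM over all 6 libraries. It had 194, 187 and 190.2 CPM in the shPARP1 libraries, against 191, 193 and 194 CPM in the shCtrl libraries, and the groups overlapped (log2 fold change -0.02, interval -0.09 to 0.05, adjusted p = 0.714). With the length and GC correction it was called lower, at -0.21. SP100, a component of nuclear bodies, had 5.80, 5.83 and 5.34 CPM in the shPARP1 libraries, against 9.23, 9.48 and 7.07 CPM in the shCtrl libraries (log2 fold change -0.60, SE 0.12, adjusted p = 3.28e-05), with no overlap. SAMD9, which restricts poxviruses, had 17, 13 and 21 counts in shPARP1 and 7, 9 and 3 counts in shCtrl (log2 fold change 1.11, SE 0.49, adjusted p = 0.0478). That call rested on few reads and on a filter that SAMD9 passed only through shPARP1. The call was lost in edgeR with no filter on low counts (adjusted p = 0.0995) and in DESeq2 (adjusted p = 0.149). It was also lost without shPARP1 replicates 1, 2 or 3 in turn (adjusted p = 0.0888, 0.0509 and 0.213) and without shCtrl replicates 1 or 3 (adjusted p = 0.0655 and 0.218). SAMD9L, its paralogue, averaged 0.552 ± 0.104 CPM in shPARP1 and 0.420 ± 0.0698 CPM in shCtrl (log2 fold change 0.39, interval -0.44 to 1.23). Neither SAMD9L nor RSAD2 was called. RSAD2 (viperin), which makes a chain-terminating nucleotide, averaged 0.461 ± 0.218 CPM in shPARP1 and 0.528 ± 0.0618 CPM in shCtrl (log2 fold change -0.20, interval -1.04 to 0.65).

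The genes named IFI do not form a single sequence family, and they split in direction. IFI6, a membrane protein of the endoplasmic reticulum that hinders flavivirus replication, had 41.8, 43.2 and 40.8 CPM in the shPARP1 libraries, against 68.9, 77.5 and 79.3 CPM in the shCtrl libraries (log2 fold change -0.84, SE 0.05, adjusted p = 5.51e-21). All shPARP1 values lay below all shCtrl values. IFI44L, by contrast, had 5.77, 5.35 and 5.71 CPM in the shPARP1 libraries, against 3.09, 3.58 and 2.61 CPM in the shCtrl libraries (log2 fold change 0.86, SE 0.15, adjusted p = 2.92e-06), with all shPARP1 values above all shCtrl values. IFI35, a partner of NMI, had 19.6, 20.7 and 19.8 CPM in the shPARP1 libraries, against 17.8, 18.1 and 14.5 CPM in the shCtrl libraries (log2 fold change 0.26, SE 0.08, adjusted p = 0.00785). The groups did not overlap, but without shCtrl replicate 3, the lowest, the log2 fold change was 0.16 with an adjusted p of 0.105. The call was also lost after the length and GC correction (0.16, adjusted p = 0.0900).

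IFI44, the neighbour and paralogue of IFI44L on chromosome 1, averaged 0.621 ± 0.111 CPM in shPARP1 and 0.544 ± 0.205 CPM in shCtrl (log2 fold change 0.20, interval -0.59 to 0.98). IFI27, often used to track interferon responses in blood, averaged 0.458 ± 0.0479 CPM in shPARP1 and 0.295 ± 0.178 CPM in shCtrl (log2 fold change 0.65, interval -0.31 to 1.61). Neither was called, at under 1 CPM, and both intervals are wide.

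Levels between genes were compared per length, in the authors' FPKM averaged over the 6 libraries. Of the 48 members, 12 were above 10 FPKM, 19 between 1 and 10 FPKM and 17 under 1 FPKM. BST2 was highest in both groups, and by the mean over all 6 libraries the next were IFI6 (59.5 FPKM), IRF3 (43.4 FPKM), IFITM3 (38.9 FPKM) and ISG15 (21.1 FPKM). Below BST2 the order differed between the groups. The means were 43.4 ± 1.25 FPKM in shPARP1 and 75.5 ± 6.26 FPKM in shCtrl for IFI6. They were 49.4 ± 0.705 FPKM in shPARP1 and 37.4 ± 2.25 FPKM in shCtrl for IRF3. In shPARP1 the SDs of IFI6 and IRF3 were smaller than the gap between them, with IRF3 above IFI6, whereas in shCtrl IFI6 lay above IRF3. IFITM3 lay above ISG15 in both groups. The means were 31.8 ± 2.28 FPKM in shPARP1 and 46.0 ± 2.18 FPKM in shCtrl for IFITM3. They were 26.7 ± 1.27 FPKM in shPARP1 and 15.5 ± 0.423 FPKM in shCtrl for ISG15. In shCtrl, the mean of IFITM3 lay above that of IRF3, and the means of IFITM1, ADAR, JAK1 and IRF1 lay above that of ISG15, IRF1 by less than its SD. IFITM1 had 10.1 ± 0.626 FPKM in shPARP1 and 24.7 ± 0.893 FPKM in shCtrl, and in shPARP1 it lay below IRF1, JAK1, IFI35, TYK2 and TRIM25. IFI27, IFIT1, MX1, RSAD2 and IFI44, which interferon strongly induces in many cells, all lay under 1 FPKM in the 6 libraries. Other interferon-stimulated members did not, such as IFI6 (59.5 FPKM), ISG15 (21.1 FPKM) and IFIT3 (4.76 FPKM).

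**Figure D4:**
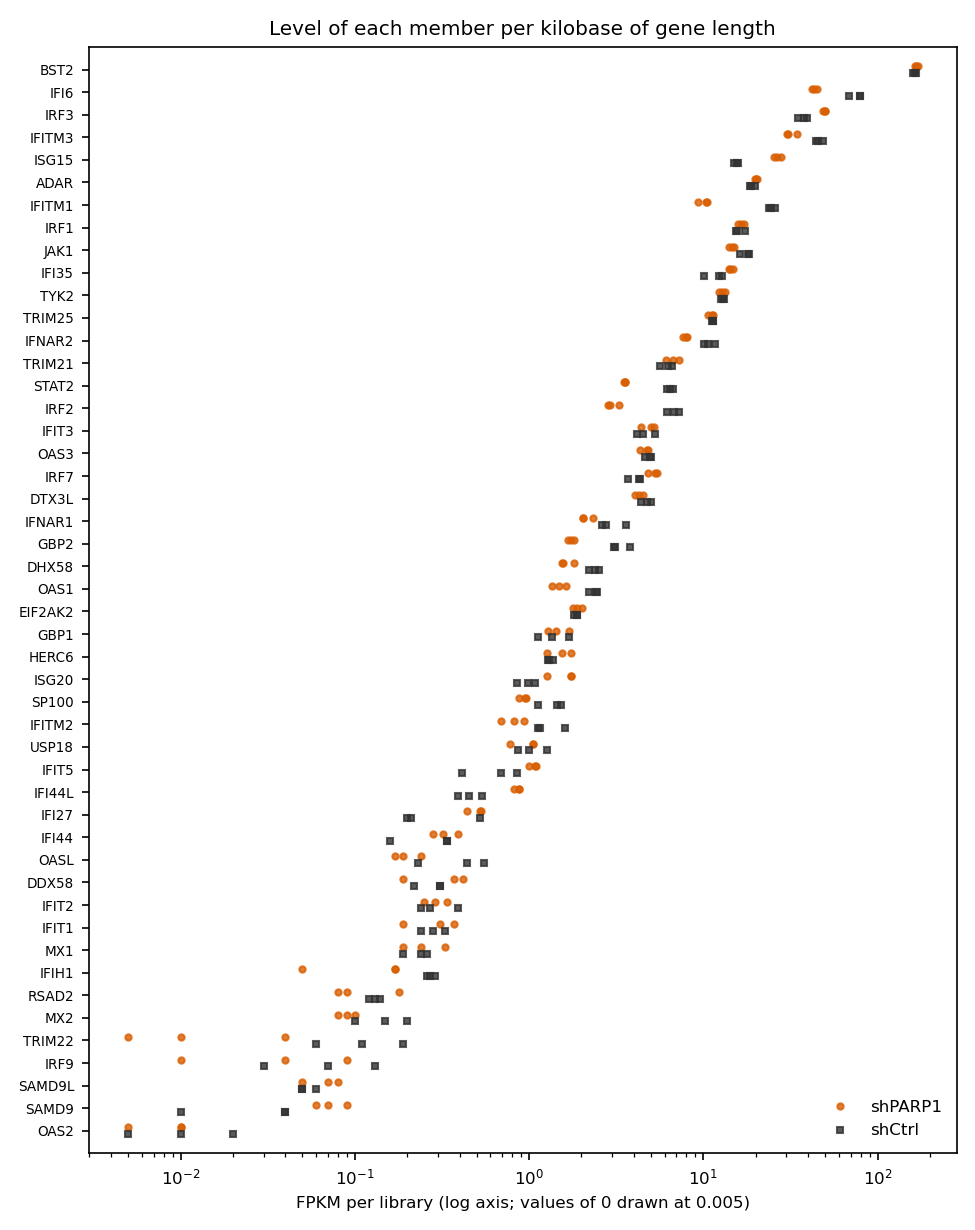
FPKM of all 48 members in each library on a log axis, ordered by the mean over the 6 libraries, shPARP1 as circles drawn above shCtrl squares, with values of 0 drawn at 0.005. BST2 is highest at 165.6 FPKM and OAS2 lowest at 0.00833 FPKM.

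Other genes of the pathway were taken from 5 lists of 70 genes in all, of which 59 had a row and 52 were tested. In shPARP1, 8 of the 52 were higher (against 27.3% of all genes) and 26 were lower (against 28.5% of all genes). Their median log2 fold change was -0.254. The 8 became 4 under DESeq2, 4 without shPARP1 replicate 2, 5 without shPARP1 replicate 3 and 4 without shCtrl replicate 3. Of 9 interferon genes listed, 7 had no row, and IFNE and IFNL3 had 8 counts or fewer in each library and were not tested.

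Among 4 other receptor chains tested, 3 were lower and none was higher, against 28.5% lower and 27.3% higher of all genes tested. IL10RB, shared by the lambda interferon and interleukin receptors, averaged 33.6 ± 0.679 CPM in shPARP1 and 49.3 ± 0.515 CPM in shCtrl (log2 fold change -0.55, SE 0.06, adjusted p = 1.41e-12). IFNGR1, the binding chain for interferon gamma, averaged 11.2 ± 0.823 CPM in shPARP1 and 15.6 ± 1.51 CPM in shCtrl (log2 fold change -0.48, SE 0.09, adjusted p = 1.06e-05). IFNLR1, the specific chain for lambda interferons, averaged 13.4 ± 0.767 CPM in shPARP1 and 16.9 ± 1.27 CPM in shCtrl (log2 fold change -0.34, SE 0.09, adjusted p = 7.57e-04). With IFNAR1 and IFNAR2, this makes 5 of the 6 tested interferon receptor chains lower in shPARP1, against 28.5% of all genes. IFNGR2 was the one not called (-0.07, adjusted p = 0.291). IFNAR2 is counted here although 83.2% of its annotated exon length overlaps other genes. Exon overlaps of IL10RB, IFNGR1 and IFNLR1 were not examined, so the 5 may not be independent of each other. The tally joins members with a pathway list, both chosen with earlier results of these data known.

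Of 11 tested genes that sense nucleic acid or relay the signal to interferon genes, 3 were higher and 4 lower, against 27.3% and 28.5% of all genes. TRAF3, an adaptor upstream of IRF3, averaged 43.6 ± 1.51 CPM in shPARP1 and 30.5 ± 0.994 CPM in shCtrl (log2 fold change 0.52, SE 0.06, adjusted p = 8.88e-11). TMEM173 (STING), the adaptor of DNA sensing, averaged 3.69 ± 0.287 CPM in shPARP1 and 7.06 ± 0.144 CPM in shCtrl (log2 fold change -0.94, SE 0.14, adjusted p = 3.83e-08). TRAF3 was thus higher and TMEM173 lower in shPARP1. MYD88, an adaptor of Toll-like receptors, averaged 16.8 ± 0.995 CPM in shPARP1 and 21.1 ± 1.98 CPM in shCtrl (log2 fold change -0.32, SE 0.08, adjusted p = 6.47e-04). TLR3, the endosomal receptor for double-stranded RNA, averaged 1.62 ± 0.344 CPM in shPARP1 and 2.82 ± 0.251 CPM in shCtrl (log2 fold change -0.81, SE 0.21, adjusted p = 8.71e-04). MYD88 and TLR3 were both lower in shPARP1.

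Of 6 negative regulators of signalling, 2 were higher (against 27.3% of all genes) and 2 lower (against 28.5%). PTPN11 (SHP2), a phosphatase, averaged 25.9 ± 0.0462 CPM in shPARP1 and 17.7 ± 2.10 CPM in shCtrl (log2 fold change 0.55, SE 0.08, adjusted p = 2.46e-08). Its SD in shPARP1 is below the counting error expected from 856, 799 and 772 counts. PTPN2, which dephosphorylates JAK and STAT proteins, averaged 9.98 ± 1.82 CPM in shPARP1 and 7.01 ± 0.338 CPM in shCtrl (log2 fold change 0.50, SE 0.12, adjusted p = 1.75e-04). Both were higher in shPARP1, while the next pair was lower. SOCS3, a feedback inhibitor of cytokine receptors, averaged 51.9 ± 2.89 CPM in shPARP1 and 64.9 ± 0.535 CPM in shCtrl (log2 fold change -0.32, SE 0.05, adjusted p = 1.58e-07). PTPN6 (SHP1), another phosphatase, averaged 25.7 ± 1.52 CPM in shPARP1 and 32.1 ± 0.700 CPM in shCtrl (log2 fold change -0.32, SE 0.07, adjusted p = 5.66e-05).

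Among 31 tested interferon-stimulated genes outside the set of 48, 3 were higher (against 27.3% of all genes) and 17 lower (against 28.5%). RNF213, a very large ubiquitin ligase, averaged 64.0 ± 3.32 CPM in shPARP1 and 137 ± 3.84 CPM in shCtrl (log2 fold change -1.10, SE 0.04, adjusted p = 4.28e-29). LGALS3BP, a secreted glycoprotein, averaged 881 ± 29.2 CPM in shPARP1 and 1344 ± 29.4 CPM in shCtrl (log2 fold change -0.61, SE 0.03, adjusted p = 3.96e-25). SHISA5, a membrane protein, averaged 187 ± 4.57 CPM in shPARP1 and 285 ± 6.30 CPM in shCtrl (log2 fold change -0.61, SE 0.04, adjusted p = 5.39e-22). Together with UBA7 these had the smallest p-values of that list, and all 4 were lower in shPARP1.

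**Figure D5:**
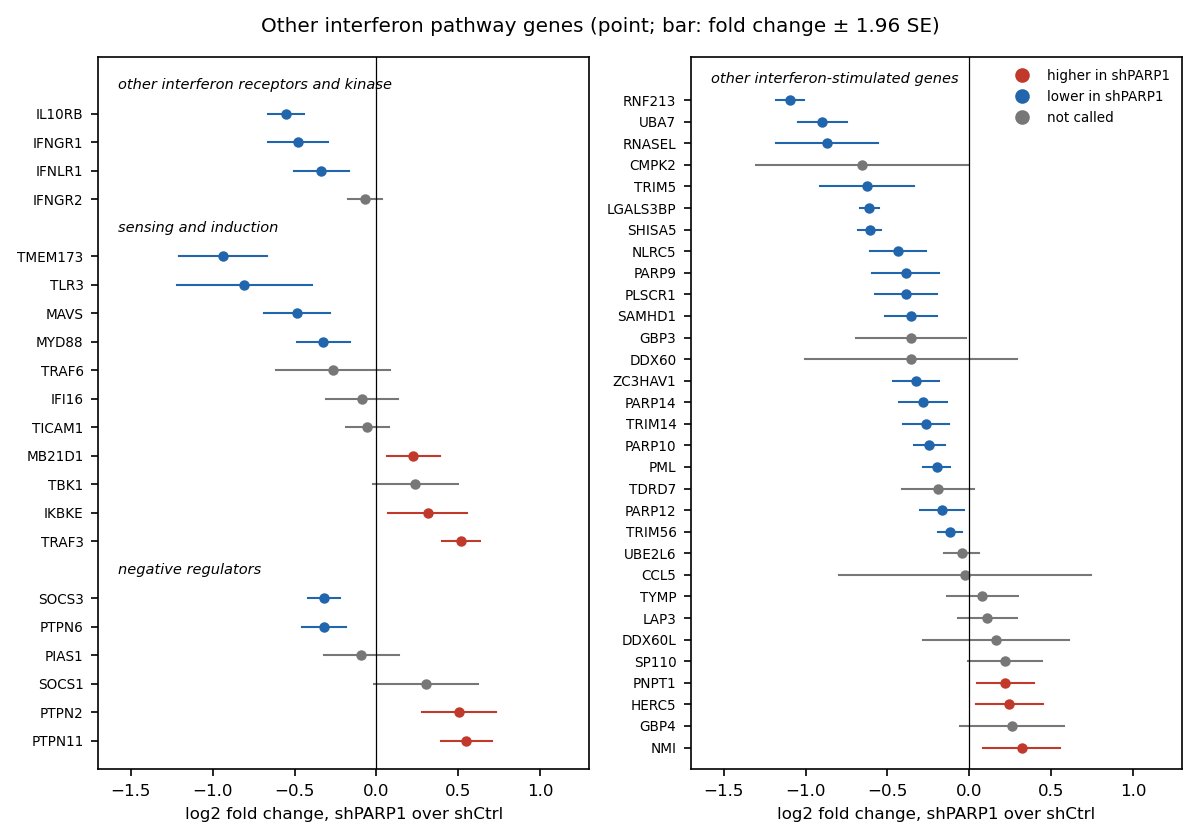
Log2 fold change of shPARP1 over shCtrl for the 52 tested other pathway genes, by list, with bars of 1.96 SE on each side. IL10RB (-0.55), TMEM173 (-0.94) and RNF213 (-1.10) lie left of 0, and TRAF3 (0.52) and PTPN11 (0.55) right of it.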

How the data were processed

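For the 6 libraries the authors deposited raw counts of reads for each gene. They also deposited FPKM values, scaled to gene length and library total. Libraries came from a stranded kit with paired-end sequencing, per the labels' protocols. GRCh38, bcl2fastq, TopHat2 and edgeR are named, without versions, per the submitters' processing notes. Neither the counting program nor whether it used strand is given in the sources used here, and reads of overlapping or near-identical genes may have been shared or dropped.

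The deposited counts were fitted with edgeR 4.0.16 under R 4.3.3: filterByExpr (16040 genes kept), TMM scaling, the robust quasi-likelihood F test and Benjamini-Hochberg adjustment over all tested genes, two-sided, checked on simulated data. The SE is the log2 fold change divided by the square root of F. CPM are given as mean ± SD over 3 libraries, and the deposited FPKM were used to compare levels between genes. Replicates 1, 2 and 3 did not deviate together across groups (correlations 0.036, -0.004 and 0.036). Within a group, every pair of libraries differed by more than sampling noise (chi-square per degree of freedom 2.54 to 4.63), so none was treated as a library deposited again; this does not show that they came from separate cultures. The CPM given for 3 counts covers counting error only.

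The members and the pathway and marker lists were chosen with earlier results of these data known, and some marker genes are not reported here. Values in every library are given for called members averaging 5 CPM or more and for tested IFITM, IFIT, OAS and transcription factor genes, and for some others. Of each pathway list, up to 4 called genes by smallest p-value are named. Exon lengths, GC content and overlaps came from GENCODE release 29 (97.4% of genes matched), and promoter windows from RefSeq on GRCh38.p14. Alternatives were other scalings and filters, DESeq2 1.42.0, limma 3.58.1 on log2(FPKM + 1) and log2(FPKM + 0.1), a length and GC correction, the replicate block, leaving out each library and, chosen after seeing the data, counts thinned to the smallest library total. Python 3.11.15 was used for summaries.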

Additional observations from a re-analysis of the deposited data

How the results depend on the processing

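Of the 24 called members, 17 (5 higher and 12 lower) kept their call and direction in each of the 17 alternatives that tested them. The other 7 lost it at least once: DTX3L, IFI35, IFIH1, IFITM2, IRF7, OASL and SAMD9. Members called higher were 7 under DESeq2, 11 after the length and GC correction and 6 to 7 when 1 library was left out, against 8. Members called lower were 16, 16 and 14 to 16 in the same settings, against 16. After the length and GC correction IRF1 (0.14), TRIM25 (0.10) and TYK2 (0.12) turned from negative to positive and were called; the cause was not tested. With the replicate block, 7 members were higher and 16 lower, SAMD9 losing its call (1.11, adjusted p = 0.0583), and no other member's call changed. With counts thinned to one depth, 7 were higher and 16 lower. Other pathway genes called higher were 4 under DESeq2 and 4 to 8 when 1 library was left out, against 8. The share of members with an ISRE core was 77.1% with 1 mismatch, against 60.0%. On the log2(FPKM + 1) scale, low genes had smaller fold changes by construction, such as 0.35 for IFI44L, 0.33 for IFIT5 and -0.17 for IFIH1. Genes under about 1 CPM were measured from few reads, and a p that misses the threshold does not show that values did not differ.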

Other observations

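Outside the set, 4 genes with a row share exons with a member on the same strand. All were called, in both directions, against 27.3% called higher and 28.5% called lower of all genes tested. These 4 genes are named after their values were seen. RP11-149I23.3, which overlaps IFIT2, had 323, 266 and 277 counts in shPARP1, against 95, 127 and 114 counts in shCtrl (log2 fold change 1.06, SE 0.13, edgeR adjusted p = 8.49e-11), while IFIT2 itself was not called. AP000295.9, which overlaps IFNAR2, had 166, 171 and 152 counts in shPARP1, against 227, 316 and 281 counts in shCtrl (log2 fold change -1.05, SE 0.12, edgeR adjusted p = 1.67e-11). C17orf67, which overlaps TRIM25, had 221, 218 and 167 counts in shPARP1, against 80, 53 and 85 counts in shCtrl (log2 fold change 1.17, SE 0.16, edgeR adjusted p = 6.58e-09). AL136295.5, which overlaps IRF9 and whose counts are given above, had a log2 fold change of -0.24 (SE 0.07, edgeR adjusted p = 0.00395). Reads shared with the member genes cannot be told apart in these counts.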
